A study of Bos taurus with 61 samples.

Results

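Claudins, keratins, cadherins and desmosome genes build the contacts and the inner scaffold of epithelial cells. They were taken here as every gene whose deposited name was a claudin (CLDN), keratin (KRT), cadherin (CDH), desmoglein or desmocollin (DSG, DSC), plakophilin (PKP), desmoplakin (DSP), occludin, a TJP scaffold or EPCAM, or the UniProt entry name of a bovine claudin or keratin. CLDN5, CLDN11 and CDH5, which mark endothelium and oligodendrocytes, were left out by the rule. It found 64 of 24616 genes, 37 of them by symbol and 27 by entry name, with 62 distinct symbols because KRT4 and KRT20 each have 2 gene models. They were 16 claudins, 32 keratins, 8 cadherins, 7 desmosome genes and EPCAM. No occludin or TJP row matched, and CDH1, KRT8 and KRT18 were not analysed here.

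RNA was sequenced from 8 Brangus heifers, a composite of Brahman and Angus, of which 4 were PRE and 4 were POST. PRE heifers had not reached puberty and had no corpus luteum, and POST heifers had reached it and were slaughtered in the luteal phase. By the study's methods, POST heifers were also older and heavier, and PRE heifers were slaughtered when the first heifer reached puberty. Stage therefore cannot be told apart from age, body weight or time of slaughter. The 61 libraries came from hypothalamus, pituitary gland, uterus, endometrium, ovary, fat, liver and longissimus dorsi muscle, with 4 libraries a group except for 3 each in PRE pituitary gland, PRE endometrium and POST endometrium. Pituitary samples held both anterior and posterior lobes, POST ovary held corpus luteum and antral follicles while PRE ovary held antral follicles only, and uterus and endometrium came from the side of the corpus luteum or, in PRE heifers, of the larger ovary. The fat is given as subcutaneous with the values, but the study's methods place it in the abdominal cavity. The study states that values of each library are public, but the tables analysed here hold the means of each tissue and stage. Single libraries were not analysed here, so no value below has a standard deviation, and no difference could be set against the spread between heifers. Summed mean reads of the 16 groups ranged from 17109554 to 27132722.

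Claudins form the strands of tight junctions, and the claudins present decide whether the seal between cells is tight or lets ions pass. Keratins are the intermediate filaments of epithelia, and they are anchored at desmosomes, where desmogleins and desmocollins reach across the gap between cells and plakophilins and desmoplakin link them to the filaments. Cadherins hold cells together through calcium, in epithelia as well as in nerve tissue and vessels. In the uterus, claudins, keratins and desmosomes are best known from the luminal and glandular epithelium, which meets the conceptus.

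Values are mean RPKM, reads scaled by exon length and by the total of the library. A member was compared between the stages of a tissue when its mean reached 0.2 RPKM in 1 stage or both, and it was called higher or lower when its means differed 4-fold or more after 0.2 was added to each mean. Folds below are on this RPKM + 0.2 scale, which understates differences of low genes. Of the 64 members, 43 reached 0.2 RPKM in at least 1 group, 37 reached 1 and 22 reached 10. Another 20 stayed above 0 but below 0.2, and CLDN20 was listed at 0 in all 16 groups. Of the keratins, 15 of 32 reached 0.2 RPKM, against 12 of 16 claudins, 8 of 8 cadherins and 7 of 7 desmosome genes. All 13 hair and inner root sheath keratins stayed below 10 RPKM.

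**Figure D1:**
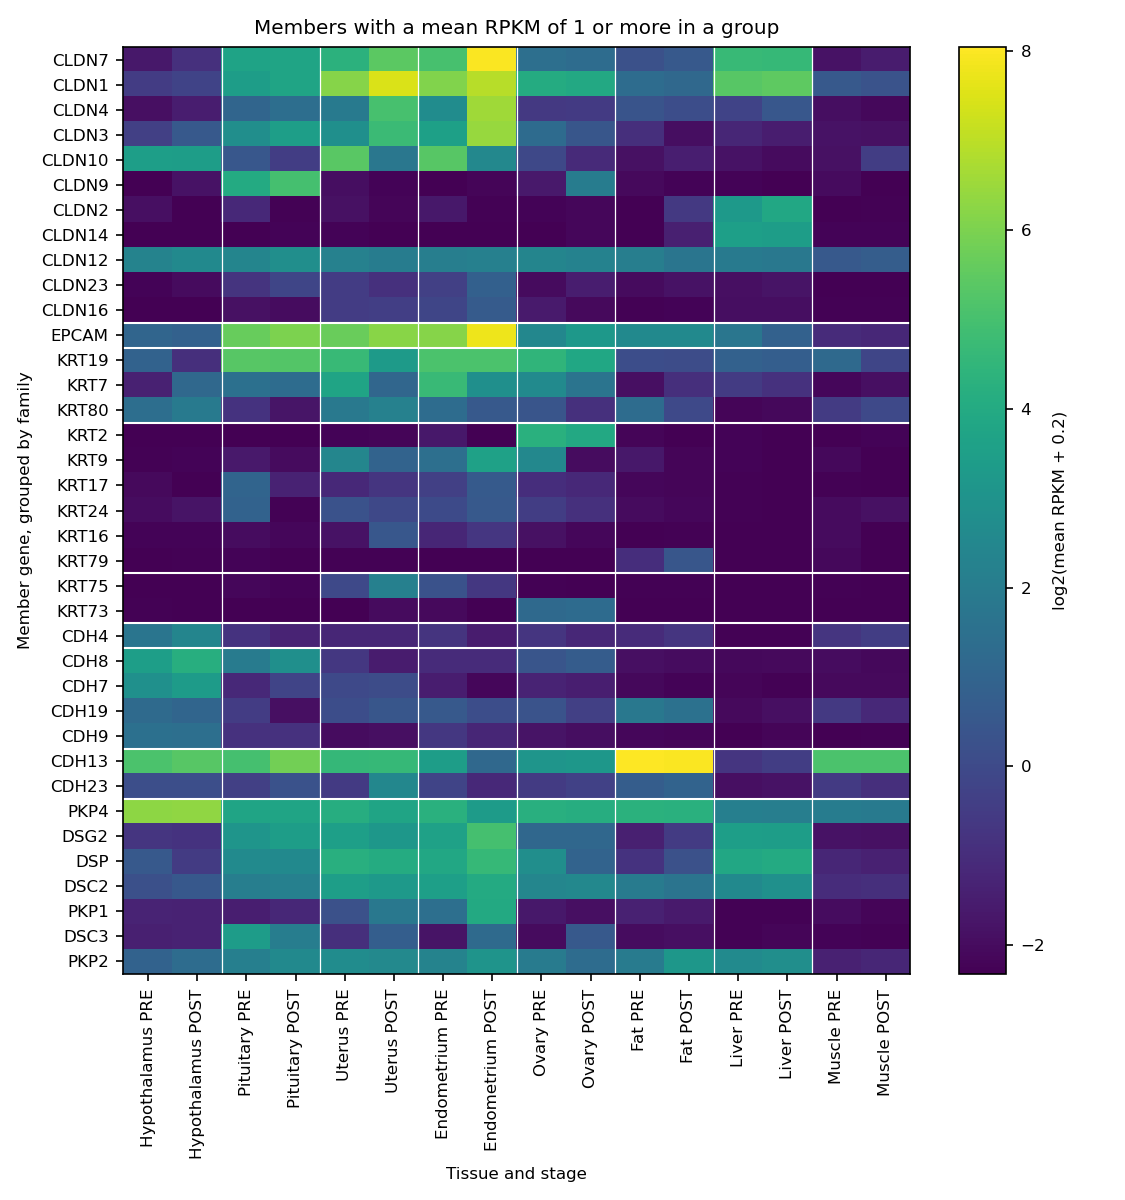
Mean RPKM of the 37 members that reached 1 RPKM in a group, as log2(mean RPKM + 0.2), by tissue and stage (columns) and by family (rows, separated by white lines). POST endometrium has the brightest column of claudins and EPCAM, and CDH13 is brightest in fat.

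The members took 0.0105% of summed RPKM in PRE muscle, the lowest share, and 0.276% in POST endometrium, the highest. In PRE endometrium the share was 0.0959%, in PRE uterus 0.0743% and in POST uterus 0.114%. The other tissues lay at 0.0730% or below, so the uterine tissues carried more of this RNA than any other tissue in POST heifers. Of the 34 members with a tissue mean of at least 1 RPKM, 18 were highest in uterus or endometrium, as were 4072 of the 15593 genes at that level. In tissue samples of this kind, fewer cells of a type and less RNA per cell cannot be told apart.

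Between stages, 201 pairs of a member and a tissue were compared, and 20 pairs of 15 members were called, 13 of them higher and 7 lower in POST heifers. Of these pairs, 14 were in uterus or endometrium. In endometrium 6 of 34 members were higher and 2 were lower, where 3.23% of all compared genes were higher and 3.31% lower. In uterus 4 of 31 were higher and 2 lower, against 1.34% and 1.61% of all genes. The median difference of the members was 0.27 log2 units in endometrium and 0.08 in uterus, beside -0.03 and -0.04 over all compared genes.

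**Figure D2:**
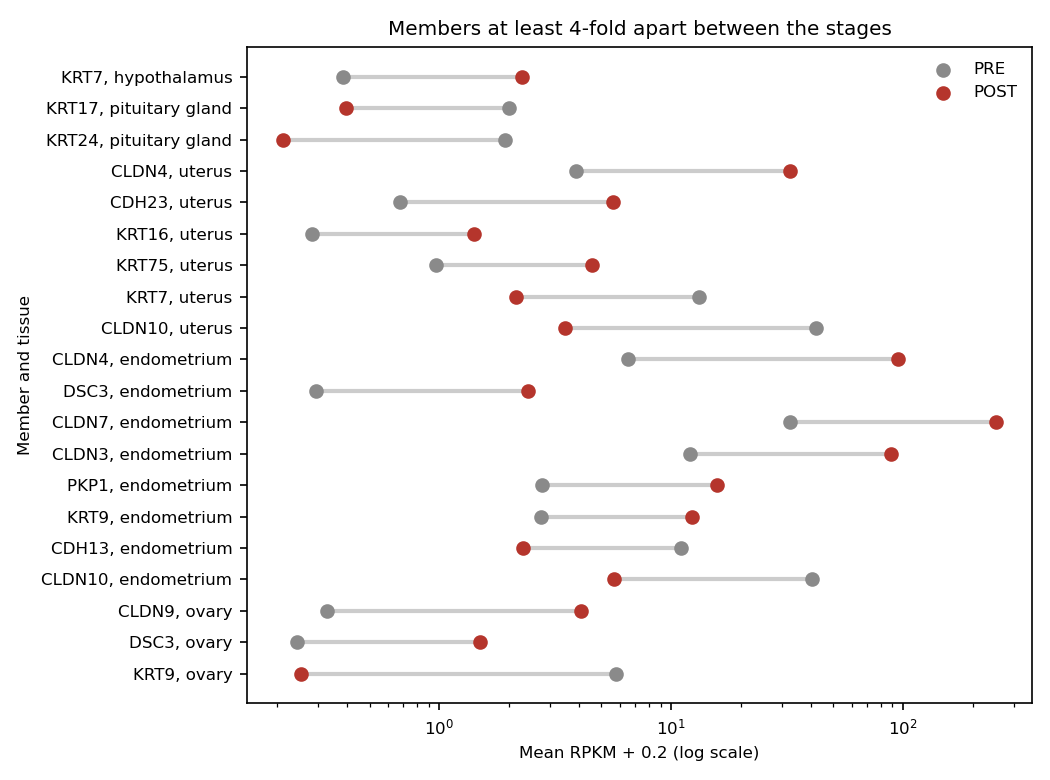
The 20 pairs of a member and a tissue called by the 4-fold rule, with PRE (grey) and POST (red) mean RPKM + 0.2 on a log axis. Each line joins the means of 1 member in 1 tissue, and CLDN4 and CLDN10 move in opposite directions in both uterus and endometrium.

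CLDN4, a claudin that tightens the seal (ENSBTAG00000026278, UMD3.1 chromosome 25, 33988117 to 33989662), had the largest difference of any member in endometrium. Its mean RPKM was 6.34 in PRE and 95.2 in POST endometrium, 14.6-fold higher, from 216 and 3582 mean reads. In uterus it was 3.69 and 32.3, which is 8.35-fold higher. Pituitary gland had 1.86 in PRE and 2.497 in POST heifers, hypothalamus 0.066 and 0.16, ovary 0.453 and 0.485, fat 1.09 and 0.9, liver 0.653 and 1.21, and muscle 0.062 and 0.035. CLDN4 was thus low in all tissues outside the uterus, and there the stages lay close together.

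CLDN3, a barrier claudin encoded 28793 bases from CLDN4 with no other gene model between them, had means of 11.8 in PRE and 88.3 in POST endometrium, 7.37-fold higher. In uterus its means were 7.06 and 26.4, just outside the rule at 3.66-fold. CLDN7, which is found along the sides of epithelial cells as well as in tight junctions, was 32.4 in PRE and 252 in POST endometrium, 7.73-fold higher. In uterus CLDN7 was 19.9 and 42.9, a 2.15-fold difference that was not called. POST endometrium thus held the highest mean of CLDN3, CLDN4 and CLDN7 among the 16 groups, and CLDN7 ranked number 167 of all genes there.

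CLDN10, known for forming ion pores in tight junctions (ENSBTAG00000003568, chromosome 12, 76758754 to 76864805), went the other way. Its mean was 40.4 in PRE and 5.49 in POST endometrium, 7.14-fold lower, and 41.9 in PRE and 3.28 in POST uterus, 12.1-fold lower. The reads behind these means were 2051 and 373 in endometrium and 2486 and 277 in uterus. In hypothalamus it was 11.1 and 10.6, and in the other tissues it stayed at or below 1.196. CLDN10 was the only claudin called lower in POST heifers in any tissue.

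CLDN1, a widespread barrier claudin, was the most abundant claudin of the uterus at 72.1 in PRE and 177 in POST heifers, and it was 67.3 and 123 in endometrium, neither of which was called. The summed claudin mean was 164 in PRE and 572 in POST endometrium, and 150 and 287 in uterus. CLDN7 made 19.8% of the sum in PRE and 44.1% in POST endometrium, CLDN4 3.86% and 16.6%, and CLDN10 24.6% and 0.959%. In uterus CLDN1 made 47.9% and 61.7%, CLDN4 2.45% and 11.2%, and CLDN10 27.9% and 1.14%. The share of CLDN10 was thus lower and that of CLDN4 higher in POST heifers in both tissues, while CLDN7 gained most in endometrium.

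**Figure D3:**
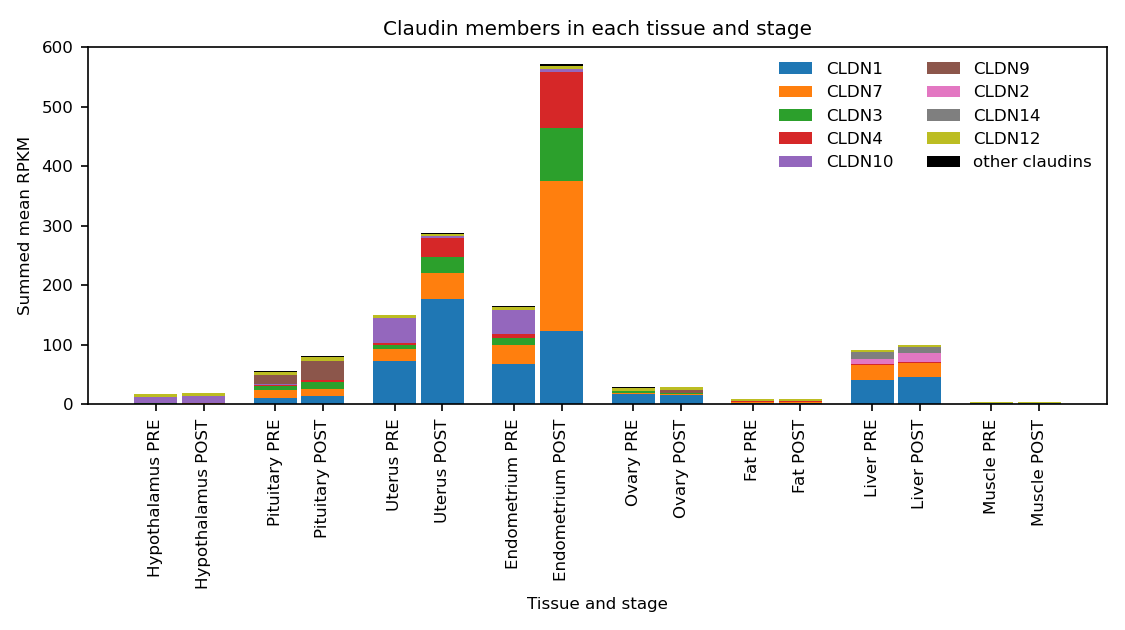
Summed mean RPKM of the claudin members by tissue and stage (bars from 0), with each claudin in its own colour. The bar of POST endometrium reaches 572 and consists mostly of CLDN7, CLDN1, CLDN4 and CLDN3, and the CLDN10 part of both uterine tissues is thin in POST heifers.

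EPCAM, a surface protein of most epithelial cells that binds CLDN7, had means of 71.6 in PRE and 222 in POST endometrium and of 50.5 and 73.4 in uterus. These 3.09-fold and smaller differences were not called. Expressed as a percent of EPCAM, CLDN4 was 8.85% in PRE and 43.0% in POST endometrium, and 7.31% and 44.0% in uterus. CLDN3 was 16.5% and 39.8% in endometrium and 13.98% and 35.9% in uterus. CLDN7 was 45.3% and 114% in endometrium and 39.3% and 58.5% in uterus, whereas CLDN10 was 56.4% and 2.48%, and 83.1% and 4.46%. Relative to EPCAM the directions of these 4 claudins were therefore as without it, but in endometrium CLDN4 alone of the 6 higher members stayed 4-fold apart, at 2.24 log2 units.

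The cell type lists moved in endometrium as well. All 4 matched smooth muscle genes were lower in POST endometrium, where 3.31% of all compared genes were. Their sum was 2742 RPKM before and 219 after puberty, and ACTA2 was 1155 and 77.1. Vimentin (VIM), a filament of mesenchymal cells, was 388 and 167. Of the uterine epithelium list, SOX17 was 24.1 and 108. In uterus the smooth muscle sum was 3970 and 5788, with none of the 4 called. The part of tissue makeup in the endometrium and uterus differences was not tested.

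Among desmosome members of the endometrium, PKP1, a plakophilin best known from epidermis, was 2.56 in PRE and 15.6 in POST heifers, 5.73-fold higher. DSC3, a desmocollin of the lower epidermal layers, was 0.093 and 2.21, 8.22-fold higher, on 20.3 and 217 mean reads, but 1.55 log2 units and no longer called with 1 RPKM added in place of 0.2. DSG2, the desmoglein of simple epithelia, was 12.03 and 31.2, and DSP was 14.8 and 24.7, neither called. In uterus PKP1 was 0.998 and 3.39 and DSC3 0.328 and 1.53, both below the rule, while DSG2 was 11.4 and 8.80. PKP1 and DSC3 were thus higher in POST heifers in both tissues, past 4-fold in endometrium, whereas DSG2 and DSP were higher in endometrium only by less than 4-fold and slightly lower in uterus.

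Keratins differed in both directions. KRT7, a keratin of glandular and simple epithelia, was 25.6 in PRE and 6.88 in POST endometrium, just outside the rule at 3.65-fold, and 12.98 and 1.94 in uterus, 6.17-fold lower. KRT19, the smallest keratin, was 34.3 and 34.5 in endometrium and 25.5 and 9.86 in uterus. Relative to EPCAM, KRT19 was 48.0% in PRE and 15.6% in POST endometrium and 50.5% and 13.4% in uterus. KRT9, a keratin known from thick skin in humans, was 2.54 and 12.1 in endometrium, 4.51-fold higher, but 5.27 and 1.78 in uterus. KRT75, a hair follicle keratin, went the opposite way, with 1.03 and 0.436 in endometrium and 0.769 and 4.36 in uterus, 4.71-fold higher. KRT16, a keratin induced in injured skin, was 0.083 and 1.21 in uterus on 6 and 62.5 mean reads, 4.97-fold higher. With 1 RPKM added the calls of KRT9 in endometrium (1.89 log2 units) and of KRT75 (1.60) and KRT16 (1.03) in uterus ended. Keratins of near-identical sequence can share reads, and single keratin values at this level carry that doubt.

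Among cadherins, CDH13, a cadherin anchored by lipid and able to bind adiponectin, was 10.9 in PRE and 2.09 in POST endometrium, 4.84-fold lower, but 23.8 and 24.2 in uterus. Its mean reads in endometrium were 896 and 307. Scaled to the total reads of each group, they gave a difference of -1.80 log2 units, short of the 2 units of the rule. CDH23, a cadherin of sensory hair cells, was 0.475 in PRE and 5.40 in POST uterus, 8.29-fold higher, and 0.681 and 0.254 in endometrium. Its mean reads in uterus were 682 and 2757. Scaled to the total reads of each group, they gave 1.78 log2 units, again short of 4-fold. CDH23 overlaps the gene model Q08D76_BOVIN, whose mean was 4.51 and 3.85 in uterus. Of the cadherins outside the rule, CDH3 was 15.6 and 2.16 in endometrium, a difference of -2.74 log2 units, and 48.4 and 51.5 in uterus.

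Uterus and endometrium were then compared within a stage, to ask which members were enriched in the lining. In PRE heifers none of 35 compared members lay 4-fold apart, where 0.188% of all genes were higher and 0.0454% lower in endometrium. In POST heifers 3 of 32 were higher in endometrium, against 2.4% of all genes, and 4 were lower, against 3.14%. CLDN7 was 5.85-fold, KRT9 6.24-fold and PKP1 4.41-fold higher in endometrium. CDH23 was 12.3-fold, CDH13 10.7-fold, KRT75 7.17-fold and CDH7 4.73-fold lower. The smooth muscle sum stood at 5788 in POST uterus and 219 in POST endometrium beside these values, and its part in them was not tested.

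The ciliated cell list was also lower in POST uterus. All 5 of its genes were at least 2-fold lower there, with no share of all genes at 2-fold to set beside them. Past 4-fold were 2 of the 5, against 1.61% of all compared genes. Their sum was 56.3 RPKM before and 13.1 after puberty, and FOXJ1 was 27.8 and 4.33. In endometrium the sum was 69.0 and 51.9 with none of the 5 past 2-fold, and CLDN10 was 7.14-fold lower. The part of ciliated cells in the CLDN10 and KRT7 values was not tested. None of these 5 genes was listed at 0 in uterus or endometrium.

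In ovary 2 of 30 members were higher in POST heifers, where 1.38% of all genes were higher, and 1 was lower, where 0.56% were. CLDN9, a claudin known from the inner ear (ENSBTAG00000047563, chromosome 25, 2433850 to 2434503), was 0.129 in PRE and 3.89 in POST ovary, 12.4-fold higher. DSC3 was 0.044 and 1.29, 6.12-fold higher, a call that ended with 1 RPKM added (1.14 log2 units). Both were highest in pituitary gland in each stage, where CLDN9 was 16.1 and 32.0 and DSC3 10.6 and 4.01. In POST heifers DSC3 was also 2.21 in endometrium and 1.53 in uterus. All 7 genes of the pituitary hormone list were also higher in POST ovary, and their sum was 154 RPKM before and 30261 after puberty. Prolactin (PRL) was 106 in PRE and 15908 in POST ovary, and growth hormone (GH1) was 30.4 and 11453. As a percent of POST pituitary, POST ovary held 12.1% of CLDN9 and 32.2% of DSC3, and between 8.96% (POMC) and 46.7% (CGA) of the 7 hormone genes. In PRE ovary the hormone genes were at 0.359% or below. The share of pituitary RNA in the ovary values of CLDN9 and DSC3 was not tested.

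KRT9 was 5.57 in PRE and 0.052 in POST ovary, 22.9-fold lower, on 245 and 3.25 mean reads, the largest difference of any member in any tissue. DSP was 6.81 and 1.77, just outside the rule at 3.55-fold, and KRT80 was 1.13 and 0.34. The ciliated cell list was lower in POST ovary as well, with 3 of 5 genes past 4-fold, against 0.56% of all compared genes. Its summed mean was 20.6 and 3.29. The luteal list was higher in 3 of 4 genes, against 1.38% of all compared genes, with a sum of 122 and 1766. KRT2, an epidermal keratin (chromosome 5, 27430824 to 27438447), was 19.2 in PRE and 15.0 in POST ovary and at or below 0.121 in the other groups. KRT73, a root sheath keratin whose gene model begins 5473 bases after KRT2, was 2.16 and 2.29 in ovary and at or below 0.048 elsewhere. KRT2 and KRT73 were thus ovarian in both stages.

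**Figure D4:**
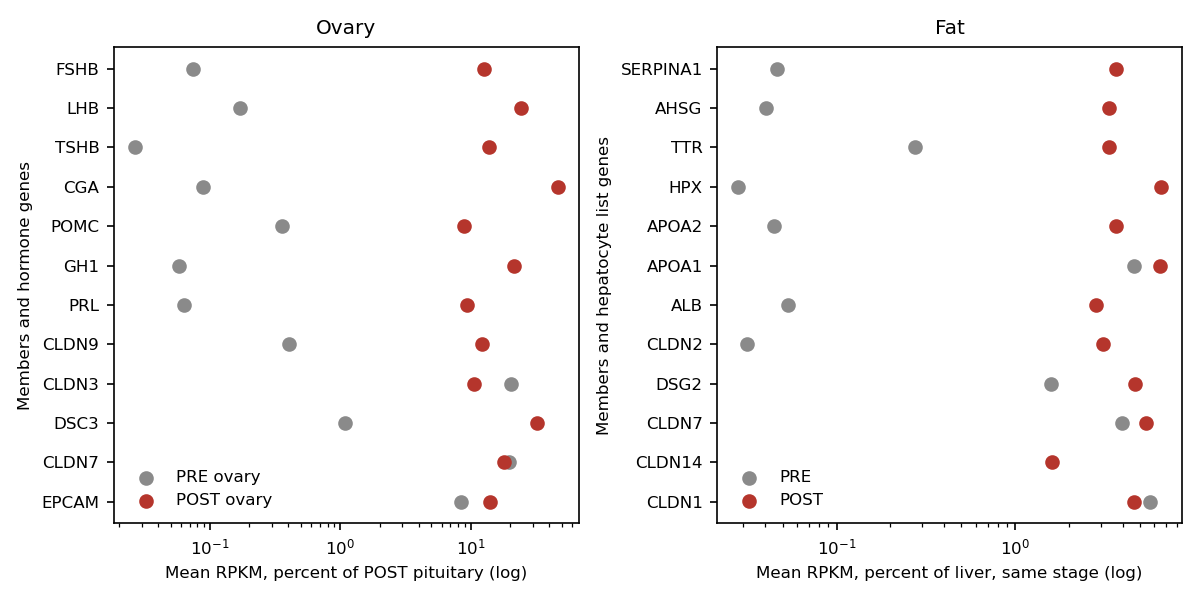
Left, mean RPKM in PRE (grey) and POST (red) ovary as a percent of POST pituitary gland for 5 members and the 7 hormone genes. Right, mean RPKM in fat as a percent of liver of the same stage for 5 members and 7 hepatocyte genes, both on log axes. CLDN9 and DSC3 shift right with the hormone genes in POST ovary and CLDN2 with most hepatocyte genes in POST fat, and CLDN14 in PRE fat is listed at 0 and has no point.

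In pituitary gland no member was higher in POST heifers, where 0.104% of all genes were, and 2 of 30 were lower, against 2.44%. KRT24 was 1.72 in PRE and 0.011 in POST pituitary, 9.08-fold lower, and KRT17 was 1.80 and 0.196, 5.05-fold lower. Both calls ended with 1 RPKM added, at -1.43 and -1.23 log2 units. KRT17 overlaps an unnamed gene model, which was at or below 0.08 in pituitary. CLDN9 was 16.1 and 32.0, and EPCAM 49.8 and 64.1, neither called. PRE pituitary stood apart in other lists: 3 of 5 endothelial genes were lower in POST heifers, with a sum of 263 and 28.3, VIM was 665 and 83.0, and SNAI2 was 12.9 and 1.48. All genes together were shifted by 0.14 log2 units between the stages there, the only tissue above 0.1. The part of these in the KRT24 and KRT17 values was not tested.

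In hypothalamus KRT7 was the member called, at 0.186 in PRE and 2.08 in POST heifers, 5.90-fold higher, on 17 and 92 mean reads, and 0.215% of all genes were higher there. With 1 RPKM added its difference was 1.38 log2 units and not called. None of 25 was lower, against 0.202%, and KRT19, at 1.72 and 0.322, was just outside the rule. Of the pituitary hormone list, 3 of 6 compared genes were higher in POST hypothalamus, with a sum of 50.3 and 273. In POST pituitary gland that sum was 230900, while KRT7 was 2.31. The part of pituitary RNA in the KRT7 value of hypothalamus was not tested. Some hypothalamus libraries were read at shorter length on an earlier instrument, and their part in these values was not tested. PKP4, a plakophilin relative of adherens junctions, was 78.3 and 79.0 in hypothalamus and at most 19.6 in the other tissues. The member cadherins of hypothalamus were led by CDH13 at 34.4 and 41.1. Neural cadherins among the members were CDH8 (11.2 and 17.7), CDH7 (7.08 and 10.1), CDH4 (3.02 and 5.07) and CDH9 (2.603 and 2.56). Of these, CDH4, CDH7 and CDH9 were 4-fold above every other tissue. Outside the rule, CDH2 was 19.4 and 25.15 in hypothalamus, above these neural members, and CDH6 was 3.93 and 5.05.

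No member was called in fat (of 20), liver (of 16) or muscle (of 15). Of all compared genes, 1.95% were higher and 0.137% lower in POST fat, 0.0221% and 0.059% in liver, and 0.496% and 0.233% in muscle. CDH13 was 265 in PRE and 253 in POST fat, the highest means of any member, and it was 34.5 and 34.3 in muscle. CLDN14 and CLDN2, a barrier and a cation pore claudin, were liver genes, with 11.3 and 10.9 and with 9.49 and 14.9. In fat CLDN2 was 0.002998 and 0.46 and CLDN14 was listed at 0 and 0.174. In POST fat 6 of 7 hepatocyte genes were higher, with a sum of 45.5 and 1775. As a percent of liver, POST fat held 3.096% of CLDN2 and 1.60% of CLDN14, against 2.83% of ALB, 3.65% of APOA2 and 6.53% of HPX. The part of liver RNA in these 2 claudin values was not tested.

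Across tissues, 17 of 34 members with a tissue mean of at least 1 RPKM were 4-fold above every other tissue, where 14.1% of all such genes were. These were CLDN3, CLDN4, CLDN7, CLDN16, KRT75 and PKP1 in uterus and endometrium counted as 1 tissue, CDH4, CDH7, CDH9 and PKP4 in hypothalamus, CLDN9 and DSC3 in pituitary gland, KRT2 and KRT73 in ovary, CLDN2 and CLDN14 in liver, and CDH13 in fat. CLDN16, a claudin of magnesium transport in the kidney, was 0.705 in PRE and 1.39 in POST endometrium and at or below 0.133 outside the uterine tissues. CLDN12, an atypical claudin, lay at the other end, with means between 1.30 and 6.75 in all 16 groups. Over the 16 means, CLDN7 was most like DSG2 (Pearson's r = 0.96), CLDN4 most like PKP1 (r = 0.90) and EPCAM most like CLDN23 (r = 0.93), a description in which the means share heifers and libraries.

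None of the members not yet described was called. DSC2, the desmocollin of simple epithelia, lay between 0.299 in PRE muscle and 15.9 in POST endometrium, and PKP2, the plakophilin of heart and simple epithelia, was lowest in PRE muscle at 0.185. In fat PKP2 was 3.75 in PRE and 8.78 in POST heifers, its highest mean, a 2.28-fold difference. CDH19, a cadherin of nerve sheath cells, was highest in fat at 3.34 in PRE and 2.73 in POST heifers. KRT80, an early epithelial keratin, reached 4.47 in POST uterus and was 2.36 and 0.789 in fat, a 2.59-fold difference, and KRT79 reached 1.17 in POST fat, the only tissue where it passed 0.2. CLDN23 reached 1.60 in POST endometrium. CLDN6, encoded 1140 bases from CLDN9, reached 0.675 in POST pituitary gland, where CLDN9 was 32.0. Between 0.2 and 1 RPKM at their highest were CDH26 (0.303), KRT72 (0.286), KRT1 (0.252), KRT35 (0.204) and KRT23 (0.203), and the other members stayed under 0.2.

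Marker genes of pituitary gland, liver, fat, muscle, ovary and hypothalamus were high in their own tissue. POST ovary also held PRL at 15908, and POST fat also held ALB at 1098. PRL was 98325 and 167975 in pituitary gland, ALB 31908 and 38733 in liver, ADIPOQ 2751 and 3407 in fat, CKM 10160 and 8954 in muscle, INHA 537 and 495 in ovary and SNAP25 274 and 272 in hypothalamus. Of the junction partners fixed as a list, 1 of 20 compared genes was higher and none lower in endometrium, where 3.23% and 3.31% of all genes were. Past 2-fold, 7 were higher and 2 lower, but the share of all genes past 2-fold is not given here to set beside them. The median was 0.80 log2 units, beside -0.03 over all compared genes. CDCP1, a membrane protein of epithelia, was 8.33 in PRE and 37.4 in POST endometrium, 2.14 log2 units higher. In uterus, ovary, pituitary gland, fat, liver, hypothalamus and muscle no partner was called.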

How the data were processed

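RNA of 61 libraries from 8 heifers was measured, and groups by tissue and stage follow the sample labels. The authors mapped reads to the bovine assembly UMD3.1 with CLC Genomics Workbench, counted unique reads per gene and computed RPKM. The tables used here, as deposited, hold the mean unique reads (an average of whole read counts, treated as a signal) and the mean RPKM of 16 groups. The study states that values per library are public, and they were not used here, so no test was possible and no p-value, error or n is given. A rule of size took its place: log2(POST + 0.2) minus log2(PRE + 0.2), a mean of 0.2 RPKM in 1 stage or both, and a 4-fold difference. A member was tissue-selective when its mean over both stages was at least 1 RPKM and 4-fold above every other tissue, uterus and endometrium taken as 1. The rule was tested on simulated data, which held no spread between heifers and no planted change in genes of low mean. Named members were those called by these rules, the 3 highest in each group, and set epithelial genes. Members and lists were chosen with earlier results of these data known. Lists were matched by symbol or bovine entry name, so some of their genes are missing.

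Mean reads were whole after multiplying by 3 in hypothalamus and endometrium and by 4 elsewhere, also in PRE pituitary gland, where the labels give 3 libraries, while they give 4 in hypothalamus. Mean reads and RPKM did not scale alike for all genes. Unique reads leave out those that match near-identical paralogs. The alternatives were another amount added, CPM from mean reads (mean reads scaled to the group total), centring, another fold or limit, symbol rows only, and differences relative to EPCAM, the last chosen after seeing the data. Python 3.11.15, numpy 2.4.6 and pandas 2.3.3 were used.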

Additional observations from a re-analysis of the deposited data

How the results depend on the processing

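None of the 20 called differences of a single member changed direction, which another added amount could not have done. With 0.05 added all 20 stayed past 4-fold, but a smaller amount widens every difference, so none could be lost. With centring all 20 stayed past it, with 1 added 11 did and with CPM 18 did. Under all 4 settings 10 stayed past 4-fold. The 9 lost with 1 added were KRT7 in hypothalamus, KRT17 and KRT24 in pituitary gland, KRT75 and KRT16 in uterus, CDH13, KRT9 and DSC3 in endometrium, and DSC3 in ovary. The 2 lost with CPM were CDH13 in endometrium and CDH23 in uterus. Relative to EPCAM, KRT75 and KRT16 in uterus and PKP1, CLDN7, KRT9, DSC3 and CLDN3 in endometrium were lost. No paired analysis was possible because the deposited means carry no heifer number, although the titles do, and leaving out single libraries was not run for the same reason. Low members depend most on the amount added, since under 1 RPKM few reads stand behind a mean.

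Counts that moved by over 1.5 times were as follows, and the cause was not tested beyond the setting itself. With 1 added, higher members numbered 0 in hypothalamus, 2 in uterus and 1 in ovary, and lower members 0 in pituitary gland and 1 in endometrium. Also with 1 added, 10 members were tissue-selective and 2 were lower in POST endometrium than uterus. With 0.05 added, lower members numbered 1 in hypothalamus, 4 in pituitary gland, 4 in endometrium and 2 in ovary, and higher members 1 in fat and 1 in muscle. With CPM, 1 member was lower in hypothalamus, 1 lower in endometrium and 1 higher in fat. With symbol rows only, higher members numbered 0 in hypothalamus, 2 in uterus and 3 in endometrium, and lower members 0 in uterus and 1 in endometrium. Under a 2-fold rule, higher members numbered 9 in uterus, 10 in endometrium, 5 in fat and 1 in muscle, and lower members 2 in hypothalamus, 5 in pituitary gland, 4 in uterus, 5 in endometrium, 4 in ovary, 2 in fat and 1 in muscle. Between endometrium and uterus the 2-fold rule gave 2 higher and 3 lower in PRE heifers and 12 higher in POST heifers. Relative to EPCAM, 2 members were higher in uterus and 1 in endometrium, and 12 were lower in endometrium.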

Other observations

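Genes that control epithelial or mesenchymal identity were compared beside the members, as a list with 14 matched genes. In endometrium 1 of 12 compared was higher and none lower, where 3.23% and 3.31% of all genes were. Past 2-fold, 4 were higher and 5 lower, with no share of all genes past 2-fold to set beside these counts. OVOL2, a repressor that holds cells epithelial, was 6.73 in PRE and 28.3 in POST endometrium, and 4.18 and 7.96 in uterus. SNAI2, a repressor that favours the mesenchymal state, was 60.2 and 15.7 in endometrium, which was not called. It was named after its values were seen. In uterus ELF5, an epithelial ETS factor, was lower at 1.61 and 0.048, and in ovary EHF, of the same family, at 2.77 and 0.182, beside KRT9 of 5.57 and 0.052. In fat ESRP2, a splicing factor of epithelia, was higher at 0.139 and 1.39, and it was 34.0 and 32.4 in liver, while 6 of 7 hepatocyte genes were higher in POST fat. In pituitary gland SNAI2 and VIM were lower.

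The keratin cluster on UMD3.1 chromosome 19 held nearby members with unlike values. KRT19, KRT9, KRT16 and KRT17 are consecutive members between 42366660 and 42483976, with 1 other gene model starting between KRT9 and KRT16. In POST uterus their mean RPKM was 9.86, 1.78, 1.21 and 0.405. In POST endometrium it was 34.5, 12.1, 0.428 and 1.34.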
